A study of Mus musculus with 194 samples.

Results

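The genes described here are those by which cholinergic neurons make, store, take back and break down acetylcholine, together with 4 muscarinic receptors through which other cells respond to it. The 9 members are Slc5a7, Chat, Slc18a3, Ache, Lhx8, Chrm1, Chrm2, Chrm3 and Chrm4, taken by name from a table of 19363 genes. They were followed in 5 brain structures of male C57BL/6OLAHSD mice, 6 to 7 weeks old before acclimation and handling, that received cocaine at 20 mg/kg. Acute mice received it for the first time, repeated mice received the last of 5 daily doses, and challenge mice received 1 dose after 21 days of abstinence from repeated cocaine. Tissue was taken at 0, 1, 2 or 4 hr. The 0 hr mice were cocaine naive in the acute arm, had received 4 doses and were taken 24 hr after the last one in the repeated arm, and were abstinent in the challenge arm. Every mouse other than the naive ones had thus received cocaine. Mice of the challenge arm were also older when taken than acute mice, by the days of dosing and abstinence. Age and the challenge arm therefore cannot be told apart. The structures, dissected from 400 µm slices, were the limbic cortex (LCtx, 28 samples), nucleus accumbens (NAc, 36), dorsal striatum (DS, 48), amygdala (Amy, 31) and lateral hypothalamus (LH, 23). A sample is 1 structure of 1 mouse, and levels are given as CPM, counts scaled to an equal total of counted reads per sample.

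Acetylcholine is made by choline acetyltransferase (Chat), packed into vesicles by the vesicular acetylcholine transporter (Slc18a3) and split in the synapse by acetylcholinesterase (Ache). The freed choline returns to the terminal through the high-affinity choline transporter (Slc5a7), and Lhx8 is a LIM homeodomain transcription factor needed for forebrain cholinergic neurons to form. In the striatum and accumbens, acetylcholine comes mainly from sparse local interneurons, while the cortex and amygdala receive it from projection neurons of the basal forebrain. Of the muscarinic receptors, the products of Chrm1 and Chrm3 couple to Gq and phospholipase C, and those of Chrm2 and Chrm4 to Gi. In the striatum, M4 is found on projection neurons of the direct pathway, and M1 on most projection neurons.

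RefSeq's table of GRCm38.p6 gave promoters, from 250 bases before to 50 bases after the start, for 8 of the 9 members, Chrm1 being the one without an entry. The 4 printed here belong to the genes that mark the cholinergic neuron itself and whose levels are compared most below. Slc18a3 lies inside the span of Chat on the same strand (chromosome 14, GRCm38: Slc18a3 32462438 to 32464850, Chat 32408203 to 32465989, GENCODE M21), an arrangement known as the cholinergic gene locus, so how reads of this span were divided between the 2 genes is uncertain. The windows are chr17:54298985-54299284 for Slc5a7, chr14:32464801-32465100 for Slc18a3, chr14:32465860-32466159 for Chat and chr3:154330511-154330810 for Lhx8, all on the minus strand, written 5′ to 3′. Capitals mark the letters TATAAA in Slc5a7 and the GC box GGGCGG, here as its reverse complement, in Slc18a3.
Slc5a7: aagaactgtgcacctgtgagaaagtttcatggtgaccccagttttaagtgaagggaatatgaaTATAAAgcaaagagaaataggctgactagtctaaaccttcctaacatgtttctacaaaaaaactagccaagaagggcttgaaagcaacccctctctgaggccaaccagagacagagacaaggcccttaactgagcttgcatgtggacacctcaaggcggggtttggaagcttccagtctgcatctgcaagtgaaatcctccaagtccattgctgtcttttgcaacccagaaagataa
Slc18a3: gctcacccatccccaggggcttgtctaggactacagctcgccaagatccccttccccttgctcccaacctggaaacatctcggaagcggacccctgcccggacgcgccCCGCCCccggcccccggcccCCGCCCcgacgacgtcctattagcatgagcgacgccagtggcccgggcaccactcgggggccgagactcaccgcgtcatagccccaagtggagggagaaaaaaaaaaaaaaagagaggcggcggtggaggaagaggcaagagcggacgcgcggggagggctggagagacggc
Chat: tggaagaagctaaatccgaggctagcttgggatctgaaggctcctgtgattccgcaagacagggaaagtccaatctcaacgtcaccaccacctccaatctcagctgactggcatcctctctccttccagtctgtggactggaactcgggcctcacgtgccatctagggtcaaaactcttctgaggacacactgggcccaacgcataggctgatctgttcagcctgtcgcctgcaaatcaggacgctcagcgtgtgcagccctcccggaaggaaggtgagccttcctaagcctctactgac
Lhx8: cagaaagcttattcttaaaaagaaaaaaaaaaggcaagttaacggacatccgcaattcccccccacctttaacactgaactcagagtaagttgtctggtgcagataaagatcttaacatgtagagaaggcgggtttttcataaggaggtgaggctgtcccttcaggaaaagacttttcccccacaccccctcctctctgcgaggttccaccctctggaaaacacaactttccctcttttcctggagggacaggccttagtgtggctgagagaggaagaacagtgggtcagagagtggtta
Searched on both strands, GGGCGG stood in the promoters of Ache, Chrm2, Chrm4 and Slc18a3, and in 35.7% of 32851 promoters of the same length. TATAAA stood in that of Slc5a7, and in 13.6% of all. The letters TAATTA of LIM homeodomain sites (5.29% of all promoters), GCGTGGGCG of Egr sites (0.612%) and TGACGTCA of the cAMP response element (1.79%) were in none of the 8 windows.

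The other members lie on chromosome 17 (Slc5a7, 54273590 to 54299034), chromosome 3 (Lhx8, 154306294 to 154330659), chromosome 5 (Ache, 137287519 to 137294466), chromosome 19 (Chrm1, 8663789 to 8683587), chromosome 6 (Chrm2, 36388084 to 36528414), chromosome 13 (Chrm3, 9875486 to 10360847) and chromosome 2 (Chrm4, 91927249 to 91928688). Because the reads come from transcript 3′ ends, the annotated end of a gene bears on its count. The M21 model of Chrm4 had 0 bases after the stop codon and ended 1147 bases before RefSeq's end, while the ends of the other members differed by 0 to 224 bases. Chrm4 had 322 counts over all libraries and Chat 594, and both are read with care below. The annotation used for counting was not given in the sources used here, so whether it set these low counts was not tested.

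The 194 libraries held 1193306 to 10367769 counts. No sequencing run held 2 experiences of LCtx or of NAc, while acute and repeated libraries of Amy and LH shared 1 run and their challenge libraries came from 2 others. For the DS, 1 run (the shared run below) took a library of 8 mice of each experience. Where run and experience coincide, they cannot be told apart. By the labels no mouse cohort held 2 experiences, also where 1 run did, so experience and cohort cannot be told apart in any structure. The summed level of 12 striatal projection neuron genes was 12890 to 17340 CPM in the DS and 6983 to 11040 in the NAc, and at most 2056 in the other structures. That of 8 hypothalamic genes was 9695 to 16670 CPM in the LH and at most 1820 elsewhere. One LCtx mouse (acute, 1 hr, replicate 2) stood apart, with Slc5a7 at 13.3 CPM against 0.151 to 1.96 in the 7 other acute LCtx mice. Its Slc18a3 (9.91 CPM) and Lhx8 (5.997) were also the highest of the LCtx, its pallidal and basal forebrain list summed to 383 CPM against 41.9 to 57.9, and its ependymal list to 95.4 against 3.49 to 6.44. LCtx values are therefore given with and without it where that changes a call. Fewer cells of a type and less RNA per cell cannot be told apart in tissue RNA.

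The genes of the cholinergic neuron were highest in the DS and NAc. Slc5a7 averaged 47.1 CPM ± 8.49 (SD, n = 48) in the DS and 25.1 ± 4.72 (n = 36) in the NAc, against 7.34 ± 4.85 (n = 23) in the LH, 4.22 ± 3.77 (n = 31) in the Amy and 2.59 ± 2.45 (n = 28) in the LCtx. Slc18a3 followed the same order, with 18.7 CPM ± 3.87 for DS, 15.6 ± 3.86 for NAc, 4.84 ± 3.45 for LH, 2.30 ± 2.16 for Amy and 1.67 ± 1.83 for LCtx. Neighbouring structures overlapped in sample range at each step of both orders. In the libraries the study marks for baseline shifts, Slc5a7 was higher in the Amy than the LCtx in acute mice alone (mean 9.6 against 2.8 CPM). It was not in repeated (2.0 against 2.8) or challenge mice (2.0 against 2.7). Slc18a3 did likewise (5.1 against 1.8, 0.77 against 1.7 and 1.6 against 1.7). Lhx8 averaged 10.9 CPM ± 1.97 in the DS and 10.7 ± 3.47 in the NAc, which did not differ beyond the spread (log2 fold change, log2FC, -0.08, SE 0.12, adjusted p = 0.521, edgeR quasi-likelihood test). It reached 4.29 ± 2.86 in the Amy, 2.20 ± 1.57 in the LH and 0.819 ± 1.14 in the LCtx. Chat was counted in 44 of 48 DS samples at 2.13 CPM ± 1.495 and in 21 of 36 NAc samples at 0.493 ± 0.609. It had no count in 27 of 28 LCtx, 27 of 31 Amy and 18 of 23 LH samples, where 3 counts, the limit a count of 0 allows in a sample, equal 0.337 to 2.51 CPM depending on its depth (counting error only). At this depth Chat could not separate those structures. Acute DS libraries averaged 5.21 CPM of Chat in the shared run and 0.375 outside it, against 0.465 in acute NAc libraries. The order of Chat in the DS and NAc thus depended on the run.

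Ache took another order. It was highest in the LH, at 415 CPM ± 88.8, which was 2.69 times the level in the Amy (154 ± 34.5), and the lowest LH sample (241 CPM) lay above the highest Amy sample (206). The NAc followed at 139 ± 20.5, the DS at 92.6 ± 20.03 and the LCtx at 80.8 ± 15.9. Amy lay above NAc over all libraries and in naive mice alone, but not in the 2 runs that held both. There, challenge libraries averaged 112.2 CPM (NAc) against 111.8 (Amy) and 145.7 against 135.8, log2FC of 0.04 and 0.14 that did not pass (adjusted p = 0.706 and 0.199).

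**Figure D1:**
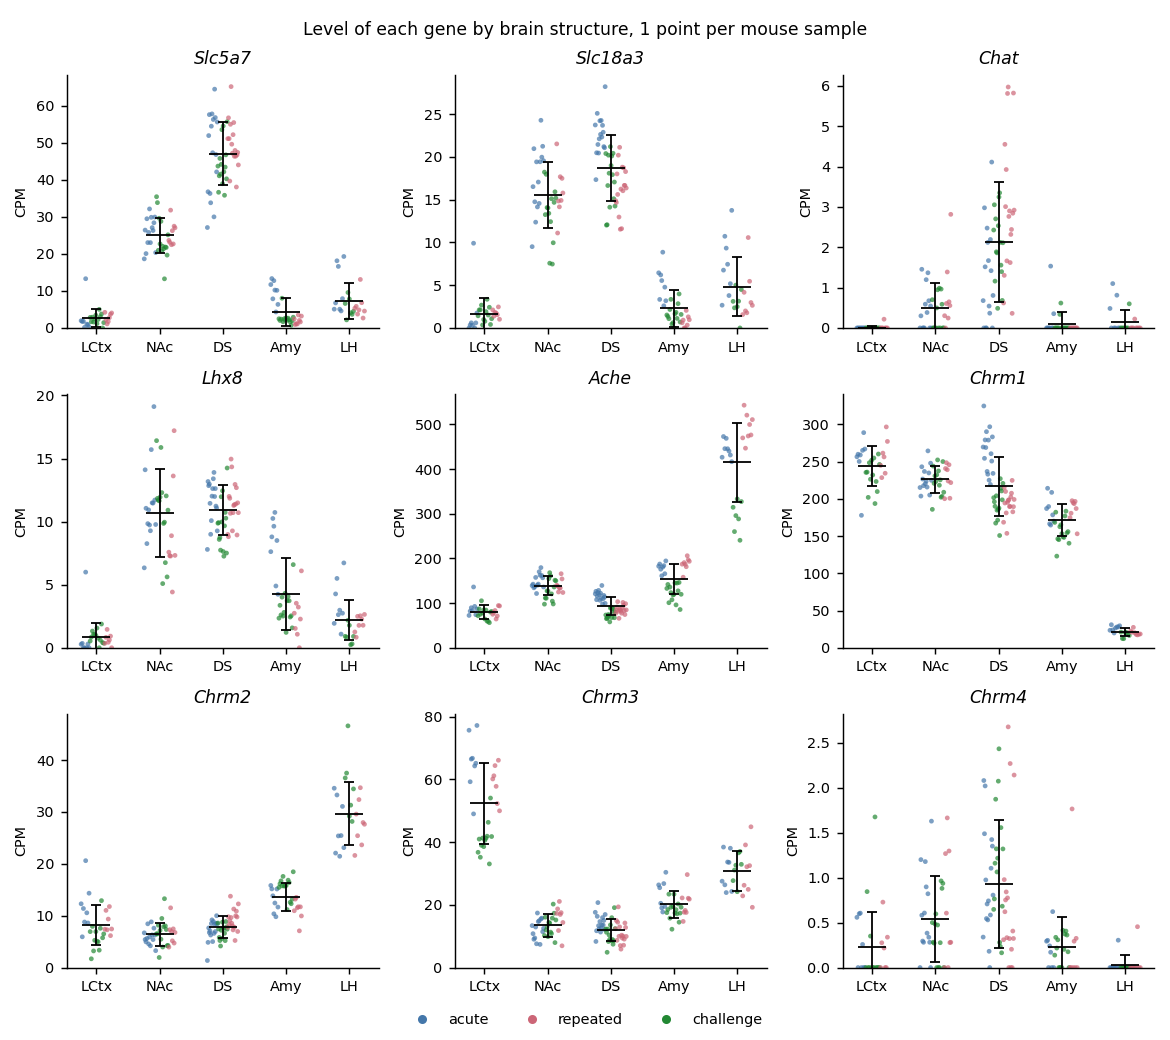
Level of each member in CPM (linear axis from 0) in each of the 5 structures, 1 point per mouse sample coloured by experience, with the mean and SD in black. Slc5a7, Slc18a3 and Lhx8 stand highest in the DS and NAc, Ache and Chrm2 in the LH, Chrm3 in the LCtx, and the LH samples of Chrm1 (12.2 to 31.0 CPM) lie below all samples of the other structures.

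The muscarinic receptors each had their own distribution. Chrm1, the most widespread Gq-coupled receptor of the forebrain, was highest in the LCtx (244 CPM ± 27.0), a little lower in the NAc (226 ± 17.9) and DS (217 ± 39.6), lower in the Amy (171 ± 21.5) and 7.97 times lower again in the LH (21.5 ± 5.09). The order of the first 3 depended on mice and run: in naive mice the log2FC of Chrm1 against DS was -0.18 for LCtx (adjusted p = 0.160) and -0.41 for NAc (adjusted p = 8.68e-04), and acute DS libraries outside the shared run averaged 277.5 CPM. No LH sample exceeded 31.0 CPM and no Amy sample was under 123 CPM. Chrm3 was highest in the LCtx (52.4 ± 12.9), followed by the LH (30.9 ± 6.41), Amy (20.1 ± 4.27), NAc (13.5 ± 3.66) and DS (12.04 ± 3.59). The last 2 did not differ beyond the spread (log2FC 0.13, SE 0.08, adjusted p = 0.142, edgeR). Chrm2 was highest in the LH (29.7 ± 6.12), 2.17 times the Amy (13.7 ± 2.70), and again the ranges of these 2 structures did not meet (21.5 CPM at the lowest against 18.5 at the highest). The LCtx (8.25 ± 3.91), DS (7.80 ± 2.15) and NAc (6.42 ± 2.24) lay below. Chrm4 averaged 0.930 CPM ± 0.713 in the DS, 0.543 ± 0.479 in the NAc and 0.0330 to 0.230 in the other structures, and its order is not read further given the annotation above. Of the 5 muscarinic receptors the remaining one, Chrm5, had mean levels of 0 to 0.0609 CPM.

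The test across structures covered 7 members, since Chat and Chrm4 did not pass the filter on low counts. Of their 70 pairs of structure, 65 (92.9%) passed an adjusted p of 0.05, against 73.0% of all gene-pair values tested. Besides the 2 named above, the pairs that missed it were Slc18a3 in the LCtx against the Amy (log2FC -0.47, SE 0.25, adjusted p = 0.0760), Chrm1 in the NAc against the DS (0.03, SE 0.04, adjusted p = 0.543) and Chrm2 in the LCtx against the DS (0.13, SE 0.10, adjusted p = 0.270). Recomputed inside single runs, which the DS never shared with another structure, 83 of 98 values kept their direction and side of the threshold, 10 lost the call and 5 turned. The order of the Amy and LH depended on the mice. In naive 0 hr mice alone, Slc5a7 was higher in the Amy (log2FC 1.09, adjusted p = 0.0303), and over all mice it was higher in the LH.

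Likeness was described as Pearson's r of log2(CPM + 1) over all samples, among genes averaging at least 5 CPM; the samples share runs and differ in depth, so r mostly carries differences between structures. Among the genes most like Slc5a7 were Drd2 (r = 0.950) and Syndig1l (0.947), and among those most like Slc18a3 were Slc5a7 itself (0.934) and Drd2 (0.921). Drd2 encodes a dopamine receptor found on indirect-pathway projection neurons, though not on them alone. Lhx8 was most like Dlx6 and Penk (both 0.907) and Six3 (0.903), Chat most like Gsk3b and Nrxn3 (both 0.822) and Klf9 (0.816), and Ache most like Slc6a9 (0.931), Gpld1 and Vat1 (both 0.916). Among the receptors, Chrm1 followed Icam5 (0.982), Ddn (0.981) and Itpka (0.979). Chrm2 followed Tspyl4 (0.879), Fbxo9 (0.847) and Slc35g2 (0.843), Chrm3 followed Hivep1 (0.882), Adra1b (0.880) and Rgs6 (0.863), and Chrm4 followed Cap1 (0.622), Zfp385b (0.603) and Rnf166 (0.602).

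Within the DS, after the mean of each experience, time and run had been subtracted from its 72 libraries, the nearest genes were others. These libraries came from 48 mice, 24 of which entered with 2 libraries, so the points are fewer than 72 independent samples. They were Hace1 (r = 0.644), Snap25 and Lrrc40 (both 0.618) for Slc5a7, Uspl1 (0.552), Prex2 (0.527) and Dnase2a (0.513) for Chat, Rnf208 (0.702), Phyhip (0.691) and Itpka (0.684) for Chrm1, and Depdc5 (0.709), Cmc2 (0.631) and Oard1 (0.568) for Chrm4. Between members, with the mean of each experience and run subtracted, Slc5a7 and Slc18a3 had r = 0.646 over the 23 LH samples, and 0.555 to 0.728 when each mouse in turn was left out. In the LCtx r was 0.639 over 28 samples and 0.175 without the mouse that stood apart, so it rests on that mouse. It was 0.325 for NAc (0.154 to 0.379 on leaving out a mouse), 0.151 for Amy (0.058 to 0.300) and 0.049 for DS (-0.052 to 0.1).

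The question of how cocaine experience bears on these genes was put to the libraries that the study marks as sequenced for baseline shifts, all time points together with time as a covariate, with 7 or 8 mice per experience. In this comparison, after repeated cocaine and after challenge mean the repeated and challenge arms against the acute arm. Each arm includes its 0 hr mice, which received no cocaine that day. A gene was called at an adjusted p under 0.05 (Benjamini-Hochberg over all genes of the structure, edgeR quasi-likelihood test) and a fold change over 1.2. The labels give each replicate of a group its own cohort and animal number, and the same numbers recur across structures, so samples of different structures may come from the same mice. The p-values measure the spread between these samples. The comparisons against acute mice within a structure share those mice. The 72 tests on members gave 18 calls, 26 unadjusted p-values under 0.05, and 18 calls with DESeq2. DESeq2 leaves low genes without an adjusted p, so it was also run without that independent filtering, an alternative chosen after seeing the data.

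In the Amy, the 3 genes of the cholinergic neuron that could be tested were all lower after repeated cocaine and after challenge. Slc5a7 ranged from 4.32 to 13.3 CPM in 8 acute mice (median 10.2), from 0.920 to 3.52 in 8 repeated mice (median 1.82) and from 0.724 to 2.74 in 7 challenge mice (median 2.24). The acute range lay wholly above the other two. Its mean was 4.81 times lower in repeated mice (log2FC -2.23, SE 0.26, adjusted p = 6.07e-08, edgeR) and 4.72 times lower in challenge mice (-2.11, SE 0.25, adjusted p = 3.1e-08). Slc18a3, the vesicular transporter, ranged from 2.59 to 8.86 CPM (median 5.16) in acute mice, from 0 to 2.05 (median 0.764) in repeated mice and from 0 to 3.98 (median 1.12) in challenge mice. Acute and repeated mice did not overlap, while challenge mice reached into the acute range. It fell by 2.71 on the log2 scale after repeated cocaine (SE 0.44, adjusted p = 2.36e-05, edgeR) and by 1.96 after challenge (SE 0.39, adjusted p = 2.2e-04). Lhx8, the transcription factor, ranged from 4.24 to 10.7 CPM (median 8.65), from 0 to 6.10 (median 2.51) and from 1.22 to 3.72 (median 2.51) in the same order. Only its challenge mice were free of overlap with the acute mice (repeated log2FC -1.65, SE 0.29, adjusted p = 6.6e-05; challenge -1.79, SE 0.29, adjusted p = 9.83e-06, edgeR).

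These levels rest on few molecules, 15 to 60 counts of Slc5a7 in an acute mouse and 2 to 22 in a repeated or challenge mouse. Over all libraries, which add 8 challenge mice, the change of Slc5a7 after challenge was -1.88 (adjusted p = 1.41e-09), and 1 added mouse (1 hr, replicate 1) held 8.03 CPM. Without the mice numbered 1, the call of Lhx8 after repeated cocaine (adjusted p = 0.0686) and that of Slc18a3 after challenge (adjusted p = 0.132) were lost. Chat had counts in 3 of these 23 Amy mice and could not be tested.

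Ache, which also marks many neurons that receive acetylcholine, behaved differently in the Amy. Acute mice held 161 to 194 CPM (median 182) and repeated mice 158 to 206 (median 189), which overlapped, whereas challenge mice held 85.6 to 146 (median 123), below every acute and repeated mouse. The challenge change was -0.53 (SE 0.07, adjusted p = 3.65e-07, edgeR) and the repeated one 0.11 (SE 0.07, adjusted p = 0.283). Of the receptors, only Chrm3 was called after challenge (log2FC -0.39, SE 0.13, adjusted p = 0.0287, edgeR), with 17.7 to 30.4 CPM (median 23.0) in acute and 12.2 to 23.4 (median 17.4) in challenge mice, which overlapped. The call was lost without the mice numbered 2 (adjusted p = 0.259), 3 (0.183) or 4 (0.0515). Chrm1 passed the adjusted p but not the fold (-0.18, adjusted p = 0.0271), and Chrm2 passed neither. In all, 3 of 7 tested members were called after repeated cocaine, where 9.13% of genes were, and 5 of 7 after challenge, where 11.6% were.

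**Figure D2:**
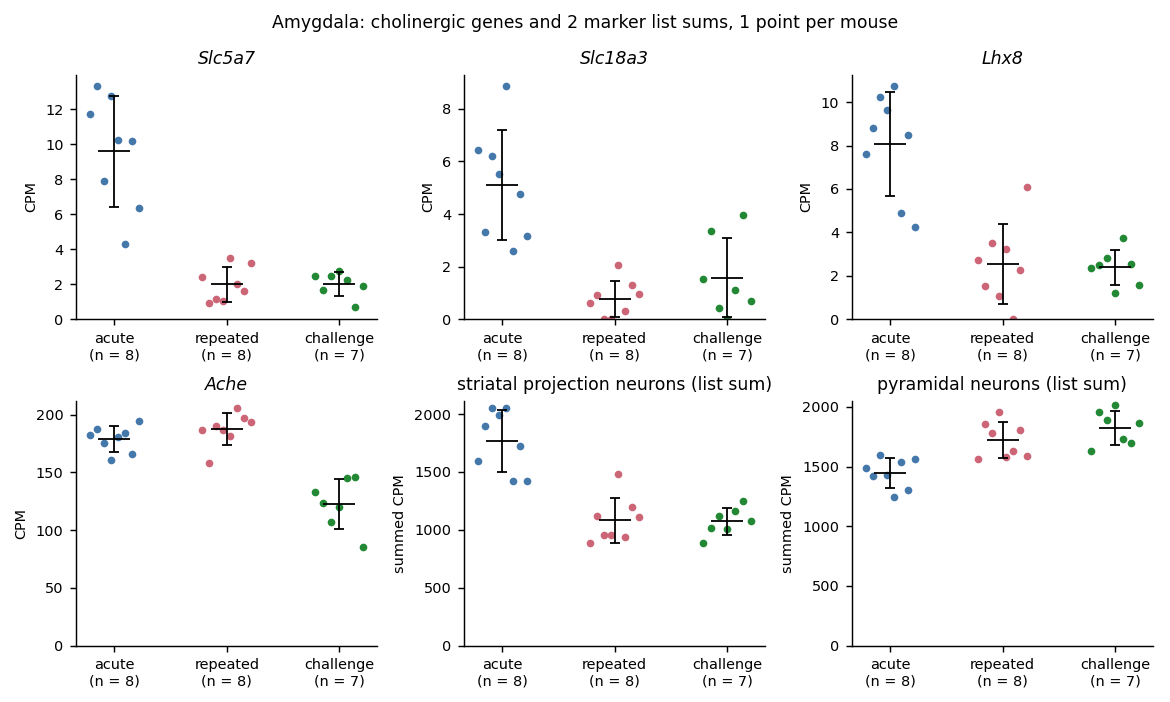
Amygdala levels by experience, 1 point per mouse of the marked libraries with the mean and SD in black, in CPM for genes and summed CPM for the marker lists (linear axes from 0). The 8 acute mice lie above all others for Slc5a7, Ache falls in challenge mice alone, and the striatal and pyramidal list sums move in opposite directions.

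Other markers moved with these genes in the same mice. The 12 striatal projection neuron genes summed to 1423 to 2056 CPM in acute, 889 to 1485 in repeated and 886 to 1250 in challenge mice, with 11 of 12 called lower in both comparisons (median log2FC -0.71 and -0.82, against -0.01 and 0.00 over all genes). The pallidal and basal forebrain list without the members summed to 47.8 to 70.9, 38.9 to 51.0 and 30.2 to 46.6 CPM. The 8 pyramidal neuron genes summed to 1246 to 1595, 1566 to 1959 and 1633 to 2012 CPM. After challenge, 5 of 5 oligodendrocyte genes (median log2FC -0.51) and 3 of 3 tested ependymal genes (-1.95) were called lower. The part of such markers in the lower levels of Slc5a7, Slc18a3, Lhx8 and Ache was not tested. Acute and repeated libraries came from 1 run but from different mouse cohorts, so repeated cocaine and cohort cannot be told apart. Challenge libraries came from other runs and another cohort, so challenge, run and cohort cannot be told apart.

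Of 41 further genes of the cholinergic pathway, 26 passed the filter in the Amy, and 6 were called after repeated cocaine. Lynx1 (log2FC 0.38, SE 0.05) and Ly6h (0.32, SE 0.07), modulators of nicotinic receptors, were higher. Slc10a4 (-0.93, SE 0.24), a transporter-like protein of cholinergic and monoaminergic vesicles, Isl1 (-0.91, SE 0.26) and Gbx1 (-0.80, SE 0.25), homeobox genes of developing forebrain cholinergic neurons, and the choline transporter-like Slc44a1 (-0.27, SE 0.09) were lower. After challenge, 7 were called, among them Adcy5 (-0.50, SE 0.06), Slc44a1 (-0.43, SE 0.09), Slc10a4 (-1.08, SE 0.24) and Gbx1 (-0.93, SE 0.25) lower and Rgs4 (0.40, SE 0.05) higher. The median log2FC of the list was 0.05 after repeated cocaine and -0.14 after challenge.

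In the LH, which shared the run of acute and repeated mice with the Amy, no member was called after repeated cocaine by edgeR or DESeq2, where 4.37% of genes were called, although 4 of 6 had an unadjusted p under 0.05. Slc5a7 changed by -0.76 (SE 0.30, adjusted p = 0.101) and Slc18a3 by -0.92 (SE 0.33, adjusted p = 0.0695). For Slc5a7 the 8 acute mice fell apart in level, with 16.6, 18.1 and 19.3 CPM in 3 of them and 4.601 to 7.92 in the other 5. The repeated mice held 2.68 to 13.1 (median 5.10). Ache passed the adjusted p but not the fold (0.18, SE 0.05, adjusted p = 0.0207). With no filter on low counts, Slc5a7 (adjusted p = 0.00151), Slc18a3 (0.00162) and Chrm1 (-0.33, adjusted p = 0.0440) were called, against 3.55% of genes.

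The difference between the 2 structures was tested directly. Repeated against acute cocaine in the Amy, minus the same in the LH, gave -1.48 for Slc5a7 (SE 0.45, adjusted p = 0.116), -1.73 for Slc18a3 (SE 0.58, adjusted p = 0.174) and 0.38 for Chrm1 (SE 0.12, adjusted p = 0.128, edgeR, 32 libraries). None of 7 tested members passed, with edgeR or with DESeq2 without independent filtering, 3 had an unadjusted p under 0.05, and 0.841% of all genes passed. That fit takes the libraries as independent, although both structures carry the same cohort and animal numbers, so it ignores that they share mice. With these numbers as a block, an alternative chosen after seeing the data, Slc5a7 (-1.62, adjusted p = 0.00931) and Slc18a3 (-1.95, adjusted p = 0.0272) passed and Chrm1 did not (0.38, adjusted p = 0.0531), where 1.16% of genes passed. With no filter on low counts all 3 passed (adjusted p = 2.99e-04, 0.00648 and 0.0487), against 0.917% of genes. Whether the fall of both transporters was larger in the Amy than in the LH thus depended on the fit.

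After challenge, 5 of 6 tested LH members were called, where 15.7% of genes were. Ache held 417 to 473 CPM (median 443) in acute, 447 to 543 (median 488) in repeated and 241 to 333 (median 296) in challenge mice, so that challenge mice lay below all others (log2FC against acute -0.61, SE 0.05, adjusted p = 2.28e-11, edgeR). Slc5a7 held 4.601 to 19.3 CPM (median 7.34) in acute and 2.19 to 9.58 (median 4.49) in challenge mice (-0.95, SE 0.30, adjusted p = 0.0161). Slc18a3 held 2.66 to 13.8 (median 7.10) and 0 to 5.01 (median 3.11), a change of -1.33 (SE 0.34, adjusted p = 0.00304). Both transporters overlapped between the groups. Chrm1 held 19.8 to 31.0 CPM (median 27.2) in acute and 12.2 to 20.99 (median 18.4) in challenge mice, which overlapped narrowly (-0.61, SE 0.12, adjusted p = 1.81e-04, edgeR). Chrm2 was the member that rose, from 21.5 to 34.6 CPM (median 25.4) to 28.2 to 46.6 (median 34.4), with a log2FC of 0.34 (SE 0.11, adjusted p = 0.0149). Slc5a7 was not called with DESeq2 (adjusted p = 0.0754 without independent filtering). Without the mice numbered 2, the calls of Slc5a7 (adjusted p = 0.144) and Chrm2 (0.604) were lost, and without those numbered 1 that of Slc18a3 (0.0944).

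Challenge libraries of the LH came from runs that held no acute or repeated LH library. The single LH mouse sequenced in both of those runs gave 394 CPM of Ache in 1 and 274 in the other. The 5 oligodendrocyte genes summed to 11540 to 14130 CPM in challenge mice against 15550 to 17980 in acute mice. Other lists overlapped between challenge and acute mice. The pallidal and basal forebrain list without the members summed to 68.9 to 92.5 against 74.2 to 106 CPM. The striatal list summed to 704 to 814.5 against 635 to 801, and the cortical interneuron list to 1012 to 1199 against 1024 to 1184. The part of these markers in the changes was not tested. Of 29 pathway genes tested, 5 were called after challenge, all lower, among them Adcy5 (log2FC -0.44, SE 0.05), the G protein subunit gene Gna11 (-0.36, SE 0.06), Ngfr (-0.84, SE 0.22) and Slc44a2 (-0.31, SE 0.10). After repeated cocaine only Ly6h was (0.43, SE 0.05, higher).

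In the shared run of the DS, Slc5a7 was again the member that separated acute mice from the others. It held 65.8 to 86.9 CPM (median 76.3) in 8 acute mice, 28.1 to 64.4 (median 46.2) in 8 repeated mice and 29.4 to 63.5 (median 47.6) in 8 challenge mice, with no overlap against acute mice. The log2FC was -0.77 after repeated cocaine (SE 0.13, adjusted p = 5.34e-06, edgeR) and -0.74 after challenge (SE 0.13, adjusted p = 1.09e-05). Slc18a3 did not follow, with 15.8 to 26.8, 11.1 to 32.5 and 11.5 to 29.0 CPM (log2FC -0.06, SE 0.19, and 0.08, SE 0.19). Neither did Chat, testable only here among the structures, with 2.59 to 9.40, 1.11 to 11.8 and 1.42 to 6.93 CPM (0.21, SE 0.37, and -0.42, SE 0.40). Lhx8 held 10.5 to 17.7 CPM in acute and 4.97 to 12.7 in challenge mice and just missed the threshold (-0.65, SE 0.25, adjusted p = 0.0523), which it passed with DESeq2 (adjusted p = 0.0258).

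Other markers moved in the same libraries. The ependymal list summed to 11.9 to 49.0 CPM in acute, 41.3 to 85.3 in repeated and 51.7 to 136 in challenge mice, with 4 of 4 genes called higher in both (median log2FC 1.499 and 1.84). The oligodendrocyte list was called lower in 5 of 5 genes after challenge (median -0.52), and 3 of 3 tested hypothalamic genes were called lower after repeated cocaine (median -0.66). The cortical interneuron list summed to 1287 to 1538, 1547 to 1805 and 1663 to 1831 CPM, with both later groups above the acute mice and 2 of 5 tested genes called higher in each. The striatal list held 14960 to 16370, 14710 to 15950 and 14680 to 15940 CPM. Their part in the level of Slc5a7 was not tested.

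The acute mice gave other levels of Slc5a7 in their other run. The same 8 mice held 32.2 to 56.6 CPM there (mean 40.4) against a mean of 76.4 in the shared run, and each of the 8 was higher in the shared run. Repeated mice averaged 44.7 CPM in the shared run and 47.7 in theirs, and challenge mice 45.2 and 43.1. Fitted on the other runs alone, in which acute libraries came from one run and the others from another, Slc5a7 changed by 0.24 after repeated cocaine (adjusted p = 0.00474) and by 0.06 after challenge. Over every DS library its change was 0.00 and -0.15 (adjusted p = 0.983 and 0.121). Without the mice numbered 4, the change after repeated cocaine in the shared run was -0.49 (adjusted p = 0.0691).

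Other members also depended on the run in these 8 acute mice. The level in the shared run over that in the other run was 11.6 for Chat, 0.638 for Ache, 0.737 for Chrm1 and 0.661 for Chrm3. Chat averaged 5.21 CPM in the shared run and 0.450 in the other. The shared run held 1269391 to 2704694 counts per library, against 1441582 to 5524281 in the other run of acute mice and 2460920 to 10367769 in that of repeated and challenge mice.

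**Figure D3:**
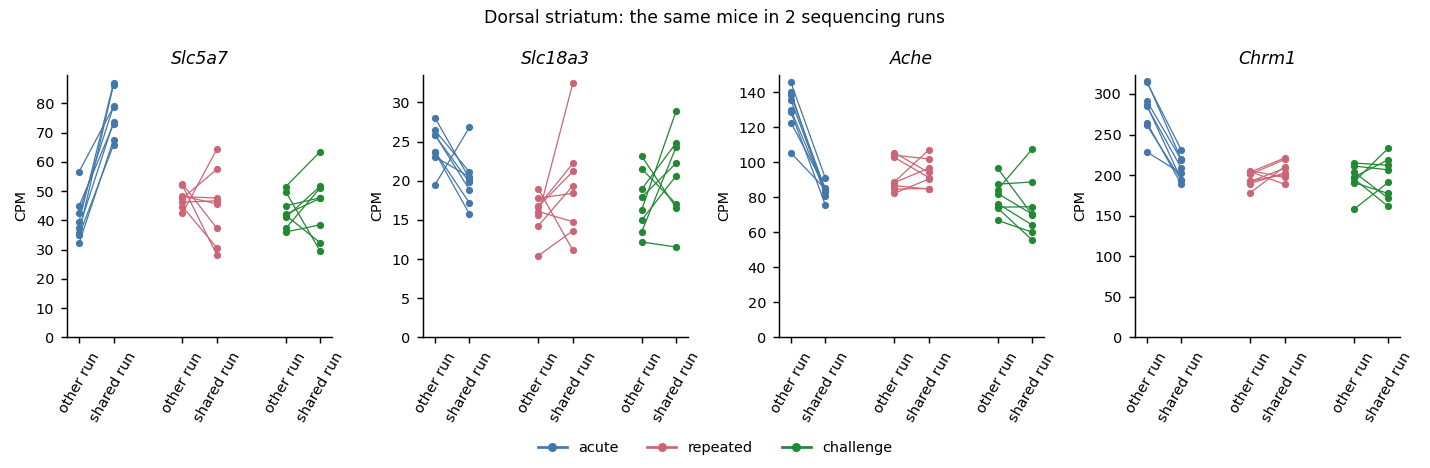
Dorsal striatum levels of Slc5a7, Slc18a3, Ache and Chrm1 of the same mice in 2 sequencing runs (CPM, linear axes from 0), each line joining the 2 libraries of 1 mouse, by experience. Acute mice average 76.4 CPM of Slc5a7 in the shared run and 40.4 in their other run, while repeated (44.7 and 47.7) and challenge mice (45.2 and 43.1) differ less.

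Ache was the only member called between challenge and repeated mice of the shared run (log2FC -0.34, SE 0.10, adjusted p = 0.0308, edgeR). It held 84.6 to 107 CPM (median 92.7) in repeated and 55.6 to 107 (median 70.2) in challenge mice, which overlapped. The call was lost without the mice numbered 1, 3, 4 or 5 (adjusted p from 0.0504 to 0.292). In the other run, which held both experiences, the change was -0.16 (adjusted p = 0.0220), under the fold threshold. Of 8 tested DS members, 1 was called after repeated cocaine against 14.3% of genes, 1 after challenge against 17.8%, and 1 between challenge and repeated mice against 4.05%. The receptors Chrm1, Chrm2 and Chrm3 were not called in any of these, with log2FC between -0.45 and 0.15. These counts hold for the shared run. Over every DS library and in the other runs, 5 and 5 members were called after repeated cocaine, against 28.2% and 45.9% of genes, and 5 and 4 after challenge, against 35.4% and 48.6%. There, Ache (-0.46 and -0.61) and Chrm1 (-0.47 and -0.59) were lower after repeated cocaine and Slc18a3 (-0.43 and -0.56) lower after challenge. None of these falls was seen in the shared run. In it Ache averaged 83.4 CPM in acute and 93.8 in repeated mice, and Chrm1 207.1 and 206.1. Slc18a3 changed there by 0.08 (SE 0.19) after challenge, so Chrm1 and Slc18a3 had no clear direction in it. Of 27 pathway genes tested, 3 were called after repeated cocaine, namely Plcb1 (-0.57, SE 0.06), the phospholipase C isoform downstream of Gq, the G protein regulator Rgs4 (-0.27, SE 0.05) and Lynx1 (0.27, SE 0.06). After challenge 6 were called, among them Plcb1 (-0.53, SE 0.06), Adcy5 (-0.32, SE 0.04), Rgs4 (-0.28, SE 0.05), Ly6h (0.34, SE 0.06) and Slc44a1 (-0.44, SE 0.10), and Ly6h (0.30, SE 0.06) alone was called between challenge and repeated mice.

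In the LCtx, 2 receptors were lower after challenge. Chrm3 held 49.0 to 77.2 CPM (median 65.2) in 7 acute mice, at most 66.1 (median 60.2) in 7 repeated mice and 33.1 to 54.1 (median 41.2) in 8 challenge mice, overlapping only slightly (log2FC of challenge -0.65, SE 0.10, adjusted p = 5.91e-06, edgeR). Chrm2 held 5.93 to 20.6 CPM (median 10.6) in acute and 1.69 to 12.9 (median 5.52) in challenge mice (-0.83, SE 0.25, adjusted p = 0.0152), and this call was lost without the mouse that stood apart (-0.63, adjusted p = 0.0552) or without the mice numbered 1, 2 or 3 (adjusted p 0.102, 0.153 and 0.0668). Without the mice numbered 1 that of Chrm3 was lost too (-0.39, adjusted p = 0.0805). Ache (-0.29, adjusted p = 0.0547) and Chrm1 (-0.17, adjusted p = 0.116) had unadjusted p-values under 0.05 and were not called. So 2 of 4 tested members were called after challenge, against 15.3% of genes. After repeated cocaine 0 of 4 were, with edgeR and DESeq2 and with no unadjusted p under 0.05, against 3.70%.

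**Figure D4:**
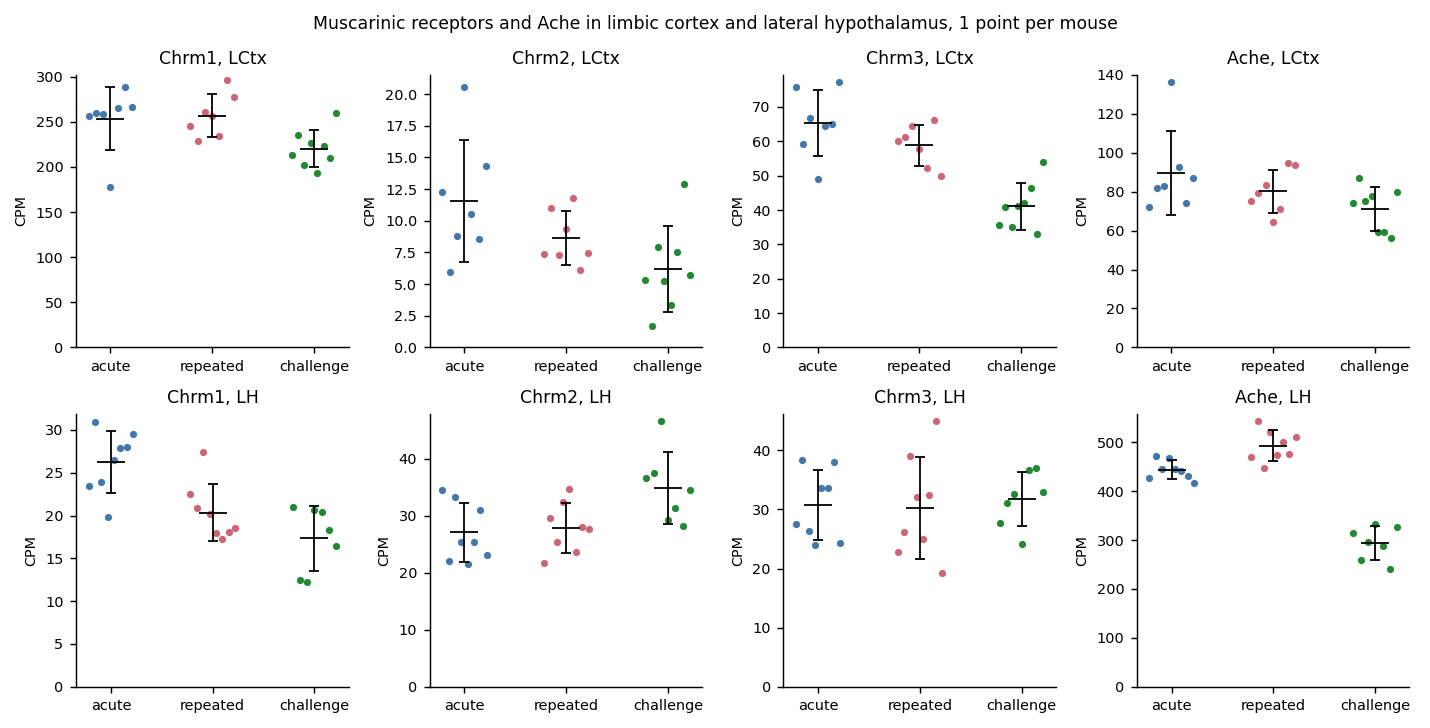
Levels in CPM (linear axes from 0) of muscarinic receptors and Ache in the limbic cortex and lateral hypothalamus by experience, 1 point per mouse of the marked libraries with the mean and SD in black. Challenge mice lie low for Chrm3 in the LCtx (33.1 to 54.1 CPM) and for Ache in the LH (241 to 333 CPM), and high for Chrm2 in the LH (28.2 to 46.6 CPM).

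Each experience of the LCtx was its own run or runs, so run and experience cannot be told apart. The blood list summed to 6560 to 10930 CPM in acute LCtx mice against 271 to 561 in repeated and challenge mice, and the striatal list to 374 to 490 in acute mice other than the one apart, against 738 to 979 in challenge mice. After challenge, 5 of 5 oligodendrocyte genes were called lower (median log2FC -0.63), with sums of 1280 to 3640 CPM in acute, 1194 to 1638 in repeated and 1134 to 1442 in challenge mice, and 2 of 4 astrocyte genes were called higher. The 1 choroid plexus gene tested was called higher after repeated cocaine (6.16) and after challenge (5.39). Their part in the receptor levels was not tested. Of 23 pathway genes tested, 4 were called after challenge, Lynx1 (log2FC -0.49, SE 0.06) and Chkb (-0.34, SE 0.10), a choline kinase, lower, and Tmem35a (0.30, SE 0.09), a chaperone of nicotinic receptors, and Tacr1 (1.21, SE 0.36), the substance P receptor, higher. After repeated cocaine only Slc44a2 was (-0.54, SE 0.11).

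The NAc gave no call among its 7 tested members, with edgeR or DESeq2 and with no unadjusted p under 0.05, after repeated cocaine (3.15% of genes called) or after challenge (18.4%). Slc5a7 held 18.7 to 32.1 CPM (median 27.8) in acute, 22.5 to 31.8 (median 25.0) in repeated and 19.7 to 35.4 (median 22.0) in challenge mice. Its log2FC was -0.02 (SE 0.12) and 0.08 (SE 0.13), and those of the other members lay between -0.35 and 0.29. Slc18a3 (9.51 to 21.2, 11.1 to 21.5 and 12.4 to 18.2 CPM) and Chrm1 (205 to 264, 200 to 248 and 186 to 250) overlapped throughout. Of 30 pathway genes tested, Slc44a2 was called lower after repeated cocaine (-0.33, SE 0.10), and Slc44a1 (-0.34, SE 0.09), Slc44a2 (-0.34, SE 0.11) and Bche (-0.85, SE 0.31), butyrylcholinesterase, were called lower after challenge. Beside these, 5 of 5 oligodendrocyte (median -0.67) and 4 of 4 ependymal genes (-1.79) were called lower and 5 of 7 pyramidal genes (1.05) higher after challenge, and their part was not tested.

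**Figure D5:**
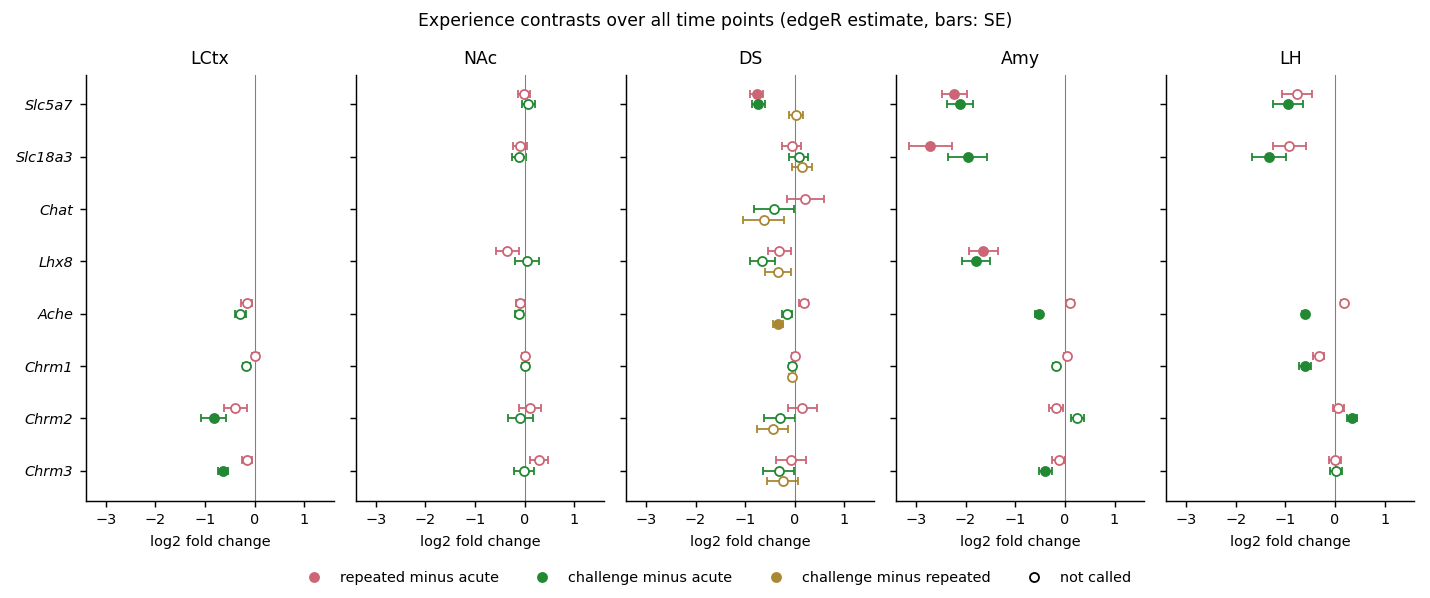
Log2 fold change of each tested member between experiences in each structure (edgeR, bars are SE), with filled points for called values and open points for the others. The largest changes are those of Slc5a7, Slc18a3 and Lhx8 in the Amy (-1.65 to -2.71), and all NAc points are open.

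Baseline levels were compared at 0 hr, in mice that had received no cocaine that day, with 2 or 3 mice per group. After repeated cocaine, 33 tests on members gave 1 call with edgeR and 6 unadjusted p-values under 0.05. DESeq2 gave 21 of them no adjusted p and called 0 of the others, and without independent filtering it made 1 call. The edgeR call was Slc5a7 in the Amy, at 11.7 and 13.3 CPM in naive and 2.43 and 0.920 in repeated mice (log2FC -2.85, SE 0.49, adjusted p = 0.00320, edgeR). These mice are a subset of those above and are no separate evidence. The call was lost without naive mouse 2 (adjusted p = 0.163) or repeated mouse 2 (0.104). In the same mice Slc18a3 read 6.45 and 3.34 CPM against 0.608 and 0.920 (-2.61, adjusted p = 0.123) and Lhx8 7.62 and 8.79 against 2.74 and 1.53 (-1.90, adjusted p = 0.105). By structure, members called were 0 of 4 for LCtx (1.39% of genes called), 0 of 7 for NAc (0.0817%), 0 of 8 for DS (1.33%), 1 of 7 for Amy (0.260%) and 0 of 7 for LH (1.64%).

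After abstinence, 26 tests gave 6 calls with edgeR, and 13 unadjusted p-values were under 0.05. DESeq2 gave 15 of them no adjusted p and called 2 of the others, and without independent filtering it made 3 calls. In the Amy, 4 of 7 members were called, against 3.47% of genes. Slc5a7 read 2.48, 2.02 and 2.39 CPM in the 3 abstinent mice (log2FC -2.38, SE 0.38, adjusted p = 2.02e-04, edgeR), Slc18a3 1.52, 1.35 and 1.08 (-1.82, SE 0.52, adjusted p = 0.0446), Lhx8 2.35, 3.37 and 2.60 (-1.58, SE 0.40, adjusted p = 0.0211) and Ache 133, 142 and 101 against 183 and 187 in naive mice (-0.54, SE 0.12, adjusted p = 0.00784). All 3 abstinent mice lay below both naive mice for each of the 4 genes. Abstinent mice 2 and 3 are not marked by the study for baseline shifts and were added because the marked libraries come from 1 mouse. In the same comparison 8 of 11 striatal (median log2FC -0.72), 5 of 5 oligodendrocyte (-0.62) and 3 of 3 tested ependymal genes (-1.58) were called lower and 4 of 8 pyramidal genes higher, and their part was not tested. Slc18a3 (adjusted p = 0.166) and Lhx8 (0.0747) were not called by DESeq2 without independent filtering. The calls of Slc18a3, Ache and Lhx8 were each lost without naive mouse 1 (adjusted p = 0.581, 0.114 and 0.168) or naive mouse 2 (0.0937, 0.118 and 0.196), that of Lhx8 also without abstinent mouse 1 (0.0848), and that of Slc18a3 without any one of the 7 mice (0.0551 to 0.581).

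In the NAc, 1 of 7 members was called after abstinence, against 2.81% of genes. Slc5a7 was higher here, at 33.8 and 35.4 CPM in abstinent against 18.7 and 20.1 in naive mice (log2FC 0.87, SE 0.19, adjusted p = 0.0174, edgeR), with repeated mice at 23.1 and 23.6. The 2 naive mice are those the study marks for baseline shifts, and the second abstinent mouse was added because only 1 is marked. The 2 unmarked naive mice read 26.4 and 29.5 CPM, and with every 0 hr mouse the log2FC was 0.57 (adjusted p = 0.0236, against 9.67% of genes called). Other markers moved in the same comparison: 5 of 5 oligodendrocyte genes were called lower (median log2FC -0.73), as were 1 of 3 choroid plexus genes (Ttr, -2.28) and 1 of 4 ependymal genes (Ccdc153, -2.15), while 1 of 7 pyramidal genes (Nrn1, 1.51) and 2 of 5 hypothalamic genes (Nts, 0.84, and Cartpt, 0.45) were called higher. Of 12 striatal genes, Adora2a (0.69) was called higher and Rgs9 (-0.42) lower. Their part in the level of Slc5a7 was not tested. The call was lost with DESeq2 without independent filtering (adjusted p = 0.0704), without either naive mouse (adjusted p = 0.147 and 0.0891) or without abstinent mouse 1 (0.0737). In the LCtx, 1 of 4 was called, against 8.36%. Chrm3 read 59.3 and 75.7 CPM in naive, 60.2 and 61.2 in repeated and 35.5 and 41.0 in abstinent mice (-0.77, SE 0.18, adjusted p = 0.00290), and was not called without naive mouse 1 (adjusted p = 0.117) or abstinent mouse 1 (0.0864). There, 5 of 5 blood genes were called lower (median -6.59) and 6 of 11 striatal genes higher (1.17), and their part was not tested. In the DS, 0 of 8 were called with edgeR and with DESeq2 without independent filtering, 3 had an unadjusted p under 0.05, and 2.57% of genes were called. Slc5a7 read 73.7 and 86.9 CPM in naive, 57.5 and 30.6 in repeated and 51.7 and 38.5 in abstinent mice there (-0.88, adjusted p = 0.0876, and -0.82, adjusted p = 0.0990). In the NAc, LCtx and Amy the abstinent libraries came from other runs than the naive ones, so run and abstinence cannot be told apart.

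Responses within hours of cocaine were tested next. In the test over 1, 2 and 4 hr against 0 hr in any experience, 35 tests gave 0 calls with edgeR and with DESeq2 (with and without independent filtering) and 5 unadjusted p-values under 0.05. The shares of all genes called were 0.169% for LCtx, 0.170% for NAc, 2.05% for DS, 0.233% for Amy and 0.0906% for LH. The smallest member value was that of Slc5a7 in the LH (adjusted p = 0.327, edgeR). In the LH, acute Slc5a7 read 5.08 and 6.76 CPM at 0 hr, 18.1 and 16.6 at 1 hr, 5.07 and 4.601 at 2 hr and 7.92 and 19.3 at 4 hr. At 1 hr both mice were high, and at 4 hr the 2 mice disagreed. The 0 calls depended on the fit. Slc5a7 in the LH passed with run or cohort as covariate (adjusted p = 0.0175, against 0.227% of genes) and with no filter on low counts (2.22e-07), where Slc18a3 in the LH (0.00223) and Ache in the NAc (0.0137) passed too, against 0.971% of genes (LH) and 1.69% (NAc). In acute LH mice 1 member was called when all genes were tested in 1 step, against 0.193%. None of the 41 pathway genes was called in any structure in this test.

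Over single time points, 43 contrasts held 303 tests of members, with 0 calls, where 0.116% of all genes tested in these contrasts were called. Among the members 26 unadjusted p-values were under 0.05 and the smallest adjusted p (edgeR) was 0.0967. That value was Slc18a3 in the LCtx 1 hr after acute cocaine (log2FC 3.74, SE 1.00), where 1 of the 2 mice was the one that stood apart. The next was Slc5a7 in the NAc 2 hr after challenge (-0.85, SE 0.19, adjusted p = 0.0975, edgeR), set against the high abstinent mice above. Of the pathway genes, Slc10a4 was called higher in the LCtx 1 hr after acute cocaine (4.14, SE 0.92, adjusted p = 0.0261, edgeR), again with the mouse that stood apart, and Ly6h lower in the DS 4 hr after acute cocaine (-0.41, SE 0.11, adjusted p = 0.0496).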

How the data were processed

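RNA was measured by 3′-end sequencing with unique molecular identifiers in 194 libraries of 166 samples from 5 brain structures, sequenced in 9 runs. The authors deposited 1 table of raw counts per gene, not normalized, for 19363 genes. Before that, per the labels and the study's methods, they removed duplicates by the 8-base identifiers, trimmed poly(A) tails, aligned reads to GRCm38 with STAR and counted genes with HTSeq. Versions and annotation were not given in the sources used here. Libraries under a minimum of reads were left out by the authors. Totals were 1193306 to 10367769 counts per library (median 3296647.5), and 28 samples had 2 libraries. Those that entered a fit or level were summed per sample. Time courses and baseline shifts used the libraries that the study marks for them, except that the LH time course used every LH library, none of which is marked, and that 1 NAc and 2 Amy abstinent mice without a mark were added. Groups came from the labels.

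Members, gene lists and tests were chosen with earlier results of these data known. The main test was the quasi-likelihood test of edgeR 4.0.16 (R 4.3.3) with TMM scaling and filterByExpr, Benjamini-Hochberg adjusted over all genes of a comparison (over all pairs together for structures). Calls needed an adjusted p under 0.05 and, for experience, 0 hr and single time points, a fold change over 1.2. The code was tested on simulated data. Alternatives were DESeq2 1.42.0, RLE scaling, no filter, a fold of 1.5 at single time points, a replicate block, leaving out mice, and other sets of libraries or runs. Fits of the other DS runs, fits without the LCtx mouse that stood apart, an animal block for the difference between Amy and LH, correlations without each mouse, and DESeq2 without independent filtering were chosen after seeing the data. Besides the members, the text names pathway genes called in a described comparison (up to 5 by smallest adjusted p, and a sixth where all are listed) and the 3 genes most like each member; 1 gene that the rule names is not reported here. CPM were computed from all counted reads.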

Additional observations from a re-analysis of the deposited data

Results flagged for a closer look

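Within groups of 4 to 10 mice of one structure, experience and time, 19 of 189 gene groups held a mouse, read in the libraries that the study marks for time courses, farther from the rest than Dixon's 95% limit; chance alone flags about 1 in 20 groups. No cause was tested for any of them. Among the genes of the cholinergic neuron, Slc5a7 was high in 1 Amy mouse 1 hr after challenge (8.03 CPM, the nearest at 2.47) and low in 1 NAc mouse 2 hr after challenge (13.3, nearest 20.8). Slc18a3 was high in 1 DS mouse 4 hr after repeated cocaine (19.0 CPM, nearest 16.7) and in 1 NAc mouse 1 hr after challenge (17.96, nearest 14.1). That DS value is 1 library. The mouse's library in the shared run held 11.1 CPM, and with both libraries summed it held 16.4 CPM, the lowest of the 4 mice. Lhx8 was low in 1 Amy mouse 2 hr after challenge (1.22 CPM, nearest 3.72) and high in 1 NAc mouse 1 hr after challenge (15.9, nearest 11.9). That same NAc mouse had the single Chat count of its group (0.496 CPM). Ache was low in 1 DS mouse 1 hr after challenge (57.9 CPM, nearest 72.1).

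Among the receptors, Chrm1 was low in 1 DS mouse 4 hr after acute cocaine (234 CPM, nearest 283) and high in 1 NAc mouse 4 hr after challenge (250 CPM, nearest 209). Chrm2 was high in 1 Amy mouse 1 hr (17.6 CPM, nearest 15.8) and another 4 hr after challenge (18.5, nearest 13.2). Chrm3 was high in 1 DS mouse 2 hr after acute cocaine (18.8 CPM, nearest 13.5), again in 1 of its 2 libraries. The other held 10.7 CPM, and both summed held 15.9, a distance within Dixon's limit. The 6 groups of Chrm4 rest on few counts, with high mice at 0.309 CPM (Amy, challenge 1 hr), 0.975 (DS, acute 1 hr), 2.27 (DS, repeated 2 hr), 0.350 (LCtx, challenge 1 hr) and 1.68 (LCtx, challenge 2 hr), and a low one at 0 (NAc, challenge 4 hr).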

How the results depend on the processing

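RLE scaling, a fold threshold of 1.5 at single time points and, between structures, a block of cohort and animal number left every count of called members within 1.5 times its value, and no called value turned direction under DESeq2, without the filter on low counts, under the replicate block or on leaving out mice. Over all single-gene values and settings, 2480 kept their direction and side of the threshold, 72 lost the call and 51 gained it. The 18 that turned follow, and their cause was not tested. The share of all genes called also changes with the setting. Counts of called members below for which no such share is given above are therefore not read as results about the members. Leaving out a replicate number in the LH time course left no residual degrees of freedom and was not run. Low counts limit Chat and Chrm4 throughout.

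Between structures, log2FC inside single runs turned for Chrm2 in LCtx against NAc (-0.057), Slc5a7 in LCtx against Amy (0.52), Lhx8 in LCtx against LH (0.53) and Ache in NAc against Amy (0.041 and 0.14 in 2 runs). In naive mice alone it turned for Chrm1 in LCtx (-0.18) and NAc (-0.41) against DS, and for Slc5a7 (1.09) and Slc18a3 (0.13) in Amy against LH. Members called became 4 for LCtx against LH inside a run, and in naive mice 2 for NAc against DS and 4 for Amy against LH.

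In the DS, over every library, repeated cocaine gave -0.46 for Ache and -0.47 for Chrm1, and challenge -0.43 for Slc18a3. In the other runs alone repeated cocaine gave 0.24 for Slc5a7, -0.61 for Ache and -0.59 for Chrm1, and challenge 0.061 for Slc5a7 and -0.56 for Slc18a3. Members called were then 5 and 5 after repeated cocaine and 5 and 4 after challenge, against 1 each, and 2 after challenge with DESeq2 with or without independent filtering. With every 0 hr mouse and library, Ache in repeated 0 hr DS mice changed by -0.44, and calls became 2 (repeated) and 2 (abstinent) in the DS and 2 in the abstinent NAc. Without the LCtx mouse that stood apart, 1 member was called after challenge.

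DESeq2 without independent filtering called 0 members in the abstinent NAc and 2 in the abstinent Amy. With no filter on low counts, calls became 1 in the NAc time course, 1 each in repeated and abstinent 0 hr DS mice, 2 in repeated 0 hr Amy mice, 3 after repeated cocaine in the LH, 2 in the LH time course and 3 for the difference between Amy and LH, which gave 2 with cohort and animal number as a block. The LH time course gave 1 call with run or cohort as covariate, and its acute part 1 when all genes were tested in 1 step.

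By the labels, same-numbered replicates of different groups within a structure are different mice, so replicate numbers do not pair the samples. As a description only, of same-numbered pairs, 2 of 65 in the LCtx, 4 of 64 in the NAc, 0 of 56 in the DS, 4 of 82 in the Amy and 4 of 110 in the LH had a correlation of deviations over 0.1. Under the replicate block, members called were 1 after challenge in the LCtx, 1 in repeated 0 hr DS mice, 0 for challenge against repeated mice of the DS and 2 in repeated 0 hr Amy mice, and other counts stayed within 1.5 times.

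Leaving out 1 mouse or replicate number gave 0 to 2 called members in the abstinent LCtx, 0 to 2 in the abstinent NAc, 0 to 1 in the abstinent DS and 1 to 4 in the abstinent Amy. At 0 hr after repeated cocaine it gave 0 to 1 in the DS, 0 to 3 in the Amy and 0 to 1 in the LH. Over all times it gave 0 to 2 after challenge in the LCtx, 0 to 1 after repeated cocaine and 0 to 1 for challenge against repeated mice in the DS, and 3 to 4 after challenge in the LH.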
